A study of Mus musculus with 9 samples.

Results

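The ER translocation and N-glycosylation machinery was taken as 36 named genes, and its members were found by matching each symbol to the Ensembl identifiers of the gene table. Of the 36 members, 35 had a row among the 28137 genes of the table, and Tusc3 was not analysed here. A total of 34 members passed the filter on low values in each of the 3 comparisons, and Srp54a did not. The cells were RAW264.7, a mouse macrophage line derived from a leukemia. All 9 libraries came from cells transfected with 60 nM siRNA for 6 h, returned to complete medium for 12 h and then exposed to 100 ng/ml lipopolysaccharide (LPS), with RNA taken after 24 h of polarization. The study's text names interferon-γ beside LPS for the sequenced NC and SFRP2 siRNA cells, and the labels name LPS only. Its methods for RAW264.7 cells also give a lower siRNA concentration and a longer culture after transfection, and the values here are those of the labels. The groups differed in the siRNA: a control siRNA (NC), SFRP2 siRNA or RAB6A siRNA, with 3 libraries each. No library of cells without siRNA or without stimulation was used here. The labels number the libraries 1 to 3 and do not say whether these were separate cultures or, for SFRP2 siRNA, different siRNAs, so that the p-values measure the spread between these libraries, which may be technical.

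Proteins bound for secretion or for a membrane enter the endoplasmic reticulum (ER) as they are made. The signal recognition particle (SRP) binds the emerging signal sequence and docks at its receptor, the nascent chain passes through the Sec61 channel, which the translocon-associated protein complex (TRAP) accompanies, and the signal peptidase removes the signal sequence. The oligosaccharyltransferase (OST) then moves a preassembled glycan from a lipid carrier onto asparagine residues, and dolichol-phosphate mannose (DPM) synthase makes the mannose donor used to build that glycan. In activated macrophages many secreted cytokines, such as TNF and IL-6, and most cell surface receptors use this route.

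Values were deposited as FPKM, fragments per kilobase of exon scaled by the size of the library. The library sizes behind the FPKM, recovered from the values, were between 32758729 and 47149258. A gene was called at an adjusted p under 0.05 (limma on log2(FPKM + 0.1), with Benjamini-Hochberg adjustment over all genes tested), and fold changes are on that scale. The target Rab6a was at 24.3, 27.3 and 25.5 FPKM in the NC libraries and at 21.2, 20.7 and 20.4 FPKM in the libraries labeled RAB6A siRNA, lower by 0.31 on the log2 scale (-0.31 ± 0.06, SE, adjusted p = 0.0024). The target Sfrp2 had 2 to 4 reads in every library, so that it does not check the SFRP2 siRNA label. Macrophage markers were detected in every library, with summed levels of 4750 to 5225 FPKM (NC), 4202 to 4549 (SFRP2 siRNA) and 4341 to 4576 (RAB6A siRNA) over 10 genes, while 4 of 6 fibroblast markers and all 4 endothelial markers stayed under 1 FPKM in every library. Within the macrophage list, Lyz2 was at 850 to 898 FPKM in NC and 196 to 239 in RAB6A siRNA, and Csf1r at 63.9 to 79.3 and 25.7 to 28.0. Spi1 was at 124 to 141 FPKM in NC and 57.3 to 68.1 in RAB6A siRNA. Adgre1 and Cd68 overlapped between these groups, with Adgre1 at 55.2 to 58.2 and 53.5 to 58.6, and Cd68 at 1759 to 1972 and 1594 to 1762. The remaining markers of the list are not given singly. In sum they were higher on average in RAB6A siRNA than in NC, as the total fell by less than the markers named here. The mitochondrial transcript mt-Co1 took 3.49% to 3.88% of the reads in NC and 8.63% to 9.74% in RAB6A siRNA. The part of these differences in the results below was not tested, and in bulk RNA fewer cells of a kind and less RNA per cell cannot be told apart.

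Sequences before the RefSeq start of members are shown for the 3 members that were highest against NC under RAB6A siRNA (Dpm1, Dpm3, Krtcap2), for Dpm2, the other DPM synthase subunit, and for Magt1 and Rpn1, 2 of the members that were lowest and have a promoter in the table. Each is the 250 bases before the RefSeq gene start in GRCm38.p6, 5′ to 3′ on the strand of the gene. The RefSeq start differs from the start of the gene in GENCODE for some of them: the windows of Dpm3 and Krtcap2 lie wholly, and those of Dpm1 and Magt1 partly, within the gene as GENCODE gives it. Capitals mark the E-box CACGTG and the CCAAT box, read as CCAAT or as its complement ATTGG. The positions are chr2:168230380-168230629 (- strand) for Dpm1, chr2:32570608-32570857 (+ strand) for Dpm2, chr3:89266211-89266460 (+ strand) for Dpm3, chr3:89246188-89246437 (+ strand) for Krtcap2, chrX:106011803-106012052 (- strand) for Magt1 and chr6:88084223-88084472 (+ strand) for Rpn1.
Dpm1: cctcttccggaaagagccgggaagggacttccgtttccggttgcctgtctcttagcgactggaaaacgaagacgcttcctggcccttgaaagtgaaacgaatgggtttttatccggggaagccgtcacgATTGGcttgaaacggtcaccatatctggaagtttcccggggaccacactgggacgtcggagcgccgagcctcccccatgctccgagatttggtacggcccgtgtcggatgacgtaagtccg
Dpm2: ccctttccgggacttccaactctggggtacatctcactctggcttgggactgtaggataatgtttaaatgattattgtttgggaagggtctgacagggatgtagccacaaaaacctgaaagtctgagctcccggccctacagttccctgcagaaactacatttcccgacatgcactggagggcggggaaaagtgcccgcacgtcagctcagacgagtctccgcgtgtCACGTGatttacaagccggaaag
Dpm3: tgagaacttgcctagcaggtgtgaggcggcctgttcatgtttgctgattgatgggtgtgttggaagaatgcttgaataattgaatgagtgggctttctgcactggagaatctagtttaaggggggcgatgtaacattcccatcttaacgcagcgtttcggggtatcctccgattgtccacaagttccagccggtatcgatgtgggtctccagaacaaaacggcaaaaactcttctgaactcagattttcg
Krtcap2: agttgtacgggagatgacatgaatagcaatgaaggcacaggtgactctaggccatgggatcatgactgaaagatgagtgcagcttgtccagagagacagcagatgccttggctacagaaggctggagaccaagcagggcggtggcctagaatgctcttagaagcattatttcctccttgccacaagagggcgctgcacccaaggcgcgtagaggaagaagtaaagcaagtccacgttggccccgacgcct
Magt1: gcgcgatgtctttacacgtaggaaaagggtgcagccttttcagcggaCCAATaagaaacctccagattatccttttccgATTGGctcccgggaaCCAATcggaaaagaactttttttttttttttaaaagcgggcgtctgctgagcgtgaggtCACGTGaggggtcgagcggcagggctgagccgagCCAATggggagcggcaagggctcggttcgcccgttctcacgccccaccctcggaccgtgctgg
Rpn1: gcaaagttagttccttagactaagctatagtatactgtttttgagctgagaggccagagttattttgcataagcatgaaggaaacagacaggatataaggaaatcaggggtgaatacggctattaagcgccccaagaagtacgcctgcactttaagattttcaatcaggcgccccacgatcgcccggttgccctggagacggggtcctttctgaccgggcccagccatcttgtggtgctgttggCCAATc
The E-box lay in the promoters of 4 members, Dpm2, Magt1, Sec62 and Ssr1, of 27 members with a promoter in the table (29 promoters), and in 6.02% of all 32851 promoters. Of these 4, Dpm2 was called higher, and Magt1, Sec62 and Ssr1 were called lower, under RAB6A siRNA. The CCAAT box, on either strand, lay in 13 members and in 33.8% of all promoters. It was present in the windows of Magt1, Rpn1 and Dpm1 and not in those of Dpm2, Dpm3 and Krtcap2. Elements named for the ER stress response were rare throughout: ERSE (CCAAT and CCACG with 9 bases between) in 0.113% of all promoters, ERSE-II (ATTGG and CCACG with 1 base between) in 0.0304% and TGACGTGG in 0.563%, on both strands, and in none of the 29 promoters of members. These are matches of letters and not measured sites.

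In control cells the members spanned levels from 0.0582 FPKM (Srp54a) to 101 FPKM (Rpn1). The highest were Rpn1, an OST subunit that sits next to the ribosome, at 101 ± 2.13 FPKM (SD, n = 3), Ssr2 of TRAP at 93.0 ± 2.53 and Srpr, a GTPase subunit of the SRP receptor, at 84.0 ± 2.37. The lowest above the filter was Dpm1, the catalytic subunit of DPM synthase, at 0.826 ± 0.113 FPKM, from 252 to 293 reads per library. Among the 34 pairs of neighbours in the order of FPKM, 16 overlapped between their NC libraries, such as Krtcap2 with Spcs3 and Spcs3 with Srp14, and 18 did not. The order depends on the length used, because FPKM here divides by all merged exons of a gene. Per kilobase of the principal transcript, Ssr2 was first (146 ± 3.96) and Rpn1 second (126 ± 2.65), and Sec11c, whose merged exons (6808 bases) are 7.92 times as long as its principal transcript (860 bases), moved from place 27 to place 6. Dpm1 stayed at place 34 of 35 on both scales. Srp54a had 2 to 21 reads per library, and 75.2% of the 50-base stretches of its transcript also occur in Srp54b or Srp54c. Its copy Srp54c, which codes for the same kind of SRP GTPase, was at 6.69 ± 0.227 FPKM in NC and 4.81 ± 0.310 in RAB6A siRNA, so reads of this SRP subunit were assigned almost wholly to copies outside the 36 members.

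Under RAB6A siRNA, 10 members were higher than in NC, 16 were lower and 8 were not called. Among all 12712 genes tested, 37.6% were called higher and 36.5% lower, so that the share of members called (10 of 34 higher, 29.4%, and 16 of 34 lower, 47.1%) has to be read against a comparison in which most genes were called. At the stricter threshold of an absolute log2 fold change over 1, 3 members were higher (Dpm1, Dpm3 and Krtcap2), beside 17.3% of all genes, and 0 were lower, beside 12.8% of all genes. The median log2 fold change was -0.13 over the members and 0.025 over all genes tested. Under quantile normalization the median of the members was 0.017, with 11 higher and 12 lower. The median of all 12712 genes was then -0.020, with 4475 higher and 4869 lower. The members did not move as a block: in each complex with over 3 members, some rose and others fell, as the plot of members by library shows.

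**Figure D1:**
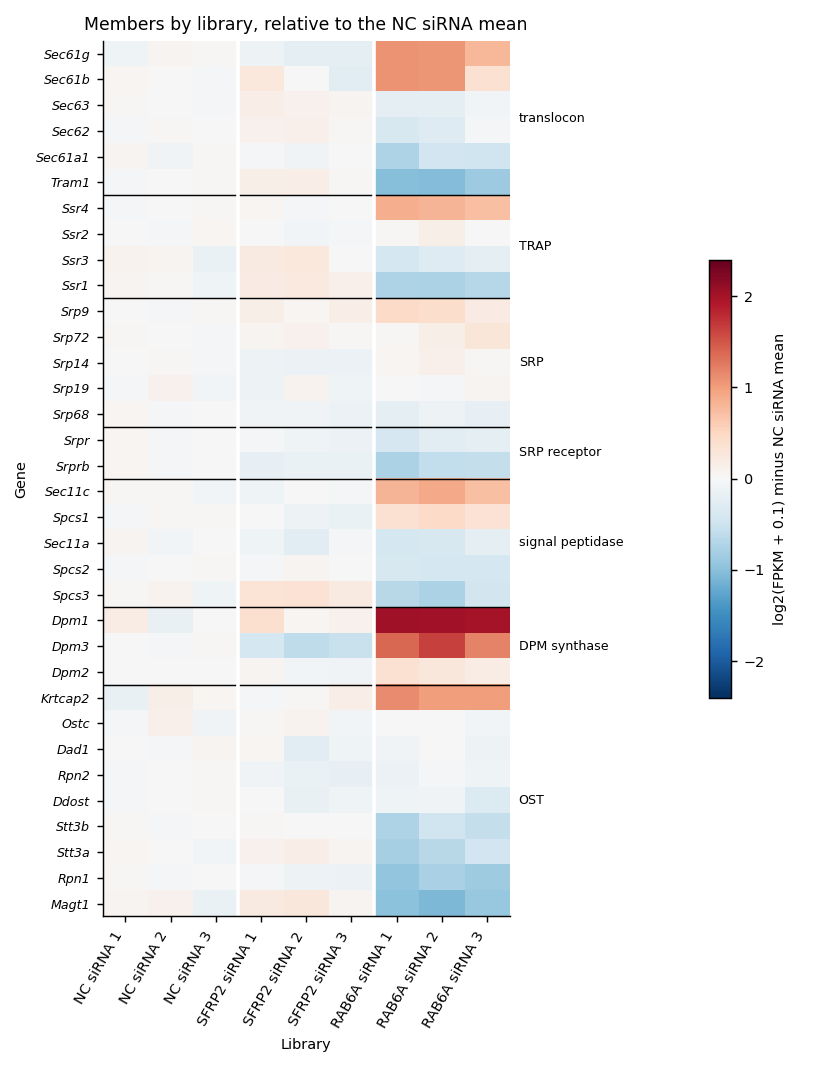
Heat map of the 34 members (rows, grouped by complex and ordered by fold change) in the 9 libraries (columns). Color gives log2(FPKM + 0.1) minus the mean of the 3 NC siRNA libraries; in the RAB6A siRNA columns 10 members are called higher and 16 lower, and rows of both colors sit in the same complex.

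DPM synthase was the complex with the largest change, and all 3 of its subunits rose in FPKM as deposited, although Dpm2 fell (-0.24) once GC content and transcript length were corrected for. Dpm1 was at 0.940, 0.714 and 0.823 FPKM in NC, at 1.10, 0.855 and 0.888 in SFRP2 siRNA and at 3.68, 3.61 and 3.55 in RAB6A siRNA. Every RAB6A siRNA library was thus above every other library, by 2.01 on the log2 scale against NC (95% interval 1.73 to 2.29, adjusted p = 6.1e-06), a 4.04-fold difference. Dpm3, the small subunit that holds Dpm1 at the ER membrane, was at 9.21, 9.05 and 9.32 FPKM in NC, at 6.84, 5.99 and 6.30 in SFRP2 siRNA and at 24.2, 28.9 and 21.1 in RAB6A siRNA, and its 3 groups did not overlap. It rose by 1.41 in RAB6A siRNA (1.15 to 1.66, adjusted p = 1.9e-05). Dpm2, which stabilizes the complex, rose by 0.27 (0.12 to 0.43, adjusted p = 0.0065). The summed level of the 3 subunits was 19.3 ± 0.309 FPKM in NC and 39.7 ± 4.30 in RAB6A siRNA, a ratio of 2.05 (p = 0.1 by an exact permutation test, two-sided, which cannot go lower with 3 libraries against 3). The Dpm1 gene overlaps Gm20716 on the same strand over 12.0% of its exon bases, and 37.7% of its 50-base stretches also occur there. Gm20716 had no values under that name, and the share of Dpm1 reads that belongs to it is uncertain.

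The subunits of the Sec61 channel differed in direction in FPKM as deposited. Sec61a1, the pore-forming subunit, was at 26.7, 23.7 and 25.7 FPKM in NC and at 15.2, 18.3 and 18.2 in RAB6A siRNA, lower by 0.56 (-0.56, interval -0.77 to -0.35, adjusted p = 0.00075). The small subunit Sec61g was at 6.91, 7.78 and 7.60 FPKM in NC, 6.79, 6.31 and 6.39 in SFRP2 siRNA and 15.8, 15.6 and 12.9 in RAB6A siRNA, higher by 0.98 (0.76 to 1.20, adjusted p = 5.4e-05). Sec61b was at 18.2, 17.5 and 17.4 FPKM in NC, 21.0, 17.5 and 14.6 in SFRP2 siRNA and 37.5, 37.2 and 22.7 in RAB6A siRNA, higher by 0.84 (0.41 to 1.26, adjusted p = 0.0040). This call was lost once GC content was corrected for together with exon length (0.35, adjusted p = 0.078) or with transcript length (-0.022, adjusted p = 0.90). The third RAB6A siRNA library was the lowest of its group for both, though above all NC and SFRP2 siRNA libraries. The ratio of Sec61g to Sec61a1 FPKM rose from 0.294 ± 0.0345 in NC to 0.867 ± 0.164 in RAB6A siRNA, without overlap (exact permutation test, p = 0.1). Of the 50-base stretches of Sec61b 41.0% and of Sec61g 20.5% also occur in pseudogenes, among them Gm10177 for Sec61g, which was itself at 9.27 ± 1.47 FPKM in NC and 17.7 ± 3.05 in RAB6A siRNA. Tram1, a membrane protein that helps some signal sequences into the channel, was at 43.1, 44.1 and 44.8 FPKM in NC, 48.2, 49.3 and 45.0 in SFRP2 siRNA and 21.6, 21.3 and 24.0 in RAB6A siRNA, lower by 0.98 (-0.98, interval -1.13 to -0.83, adjusted p = 8.3e-06).

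Sec62 and Sec63, which assist the channel with short and slowly gated precursors, were called lower by small margins, at -0.24 (adjusted p = 0.041) and -0.18 (adjusted p = 0.048). Both calls were lost when any one of the NC libraries or RAB6A siRNA replicate 1 or 2 was left out, with adjusted p of 0.077, 0.11, 0.085, 0.12 and 0.11 for Sec62 and 0.13, 0.11, 0.064, 0.13 and 0.14 for Sec63, in the order NC replicates 1, 2, 3 and RAB6A siRNA replicates 1, 2.

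TRAP showed the same kind of split. Ssr4 rose from 14.7 ± 0.431 FPKM in NC to 25.6 ± 1.42 in RAB6A siRNA (0.80, 0.66 to 0.94, adjusted p = 1.8e-05), Ssr1 fell from 24.6 ± 1.59 to 14.8 ± 0.461 (-0.73, -0.88 to -0.58, adjusted p = 3.9e-05) and Ssr3 fell by 0.31 (-0.31, adjusted p = 0.012), a call that was lost under quantile normalization (-0.15, adjusted p = 0.14). Ssr2 was not called (0.055, -0.085 to 0.20). The summed TRAP level was 185 ± 3.95 FPKM in NC and 180 ± 5.12 in RAB6A siRNA (exact permutation test, p = 0.2).

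In the SRP particle, 1 of 5 tested members was higher, 1 lower and 3 were not called. Srp9, which with Srp14 forms the domain that slows translation, rose by 0.36 (0.17 to 0.55, adjusted p = 0.0049), and Srp68 was called lower at -0.18 (-0.30 to -0.05, adjusted p = 0.018). The interval of the difference lay within -0.15 to 0.32 for Srp14, Srp19 and Srp72, which were not called, although all 3 were called with GC content and transcript length corrected for (-0.40, -0.44 and 0.40). The Srp68 call was lost without NC replicate 1 (-0.15, adjusted p = 0.074) and without RAB6A siRNA replicate 1 (-0.16, adjusted p = 0.053), while Srp72 was called without RAB6A siRNA replicate 1 (0.21, adjusted p = 0.027). At the SRP receptor, the membrane anchor Srprb was at 15.9, 15.0 and 15.5 FPKM in NC, 13.5, 13.9 and 13.8 in SFRP2 siRNA and 9.15, 10.3 and 10.3 in RAB6A siRNA. It fell by 0.64 in RAB6A siRNA (-0.64, -0.80 to -0.48, adjusted p = 8.8e-05), with 27.8% of its 50-base stretches shared with Gm20425, which overlaps it on the same strand. Gm20425 had no values under that name. Srpr fell by 0.30 (-0.30, -0.45 to -0.16, adjusted p = 0.0027), and it was not called under any correction for GC content and length.

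In the signal peptidase, the alternative catalytic subunits were called in opposite directions. Sec11a was at 8.44, 7.71 and 7.97 FPKM in NC, 7.49, 6.59 and 7.86 in SFRP2 siRNA and 5.99, 6.10 and 6.87 in RAB6A siRNA, lower by 0.34 in RAB6A siRNA than in NC (-0.34, -0.52 to -0.17, adjusted p = 0.0044). Sec11c was at 10.9, 11.0 and 10.3 FPKM in NC, 9.93, 10.6 and 10.6 in SFRP2 siRNA and 19.1, 20.2 and 17.8 in RAB6A siRNA, higher by 0.82 (0.66 to 0.97, adjusted p = 2.3e-05). With GC content and exon length corrected for, Sec11a was no longer called (-0.13, adjusted p = 0.095), and with transcript length Sec11c was at 0.41. The ratio of Sec11c to Sec11a FPKM was 1.34 ± 0.0771 in NC, 1.43 ± 0.159 in SFRP2 siRNA and 3.03 ± 0.380 in RAB6A siRNA, and the last group stood apart from the other groups. Among the accessory subunits, Spcs1 rose by 0.38 (-0.23 once GC content and transcript length were corrected for), and Spcs2 and Spcs3 fell by 0.41 and 0.62 (-0.41 and -0.62, adjusted p = 0.00017 and 0.00056).

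In the OST, 1 of 9 tested members rose, 4 fell and 4 were not called. Krtcap2 (keratinocyte-associated protein 2), a subunit of the STT3A form of the enzyme, was at 63.7, 79.9 and 74.4 FPKM in NC, 70.4, 73.9 and 81.1 in SFRP2 siRNA and 159, 145 and 146 in RAB6A siRNA, higher by 1.05 (0.83 to 1.26, adjusted p = 3.3e-05). Of its 50-base stretches, 16.9% also occur in Trim46, which overlaps it on the other strand, and Trim46 itself was at 3.23 ± 0.369 FPKM in NC and 3.43 ± 0.296 in RAB6A siRNA. Rpn1 was at 103, 99.2 and 102 FPKM in NC, 98.1, 92.7 and 91.5 in SFRP2 siRNA and 52.8, 58.9 and 55.8 in RAB6A siRNA, lower by 0.86 (-0.86, -0.997 to -0.723, adjusted p = 1.1e-05). Magt1, an oxidoreductase subunit of the STT3B form that also takes part in magnesium homeostasis, was at 8.72, 9.04 and 7.47 FPKM in NC, 9.78, 10.1 and 8.72 in SFRP2 siRNA and 4.20, 3.93 and 4.42 in RAB6A siRNA, the largest fall among members at -0.99 (-1.20 to -0.77, adjusted p = 4.6e-05). All values of both genes in RAB6A siRNA were under every other library.

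Both catalytic subunits of OST fell to a like degree. Stt3a, which glycosylates chains as they enter the ER, was at 44.8, 43.5 and 41.4 FPKM in NC, 46.2, 48.5 and 45.2 in SFRP2 siRNA and 24.8, 27.1 and 31.5 in RAB6A siRNA (-0.64, -0.86 to -0.43, adjusted p = 0.00042). Stt3b, which acts on sites that were skipped, was at 33.7, 32.3 and 33.6 FPKM in NC, 33.8, 33.1 and 33.4 in SFRP2 siRNA and 19.9, 23.8 and 22.3 in RAB6A siRNA (-0.60, -0.77 to -0.42, adjusted p = 0.00021). Their ratio was 1.30 ± 0.0617 in NC, 1.40 ± 0.0609 in SFRP2 siRNA and 1.27 ± 0.137 in RAB6A siRNA, and the difference between NC and RAB6A siRNA was within the spread of the libraries (exact permutation test, p = 0.7). The core subunits Ddost (-0.17, -0.35 to 0.0097), Rpn2 (-0.096, -0.22 to 0.030) and Dad1 (-0.066, -0.21 to 0.079) and Ostc (-0.031, -0.19 to 0.12), which ties the STT3A form to the channel, were not called. Ddost was called lower under every correction for GC content and length (to -0.34). With GC content and transcript length corrected for, Ostc was called lower (-0.30) and Dad1 higher. The 2 small OST subunits outside the 36 members, Ost4 and Tmem258, were both higher in RAB6A siRNA, by 0.52 (adjusted p = 0.0099) and 0.48 (adjusted p = 0.0011).

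**Figure D2:**
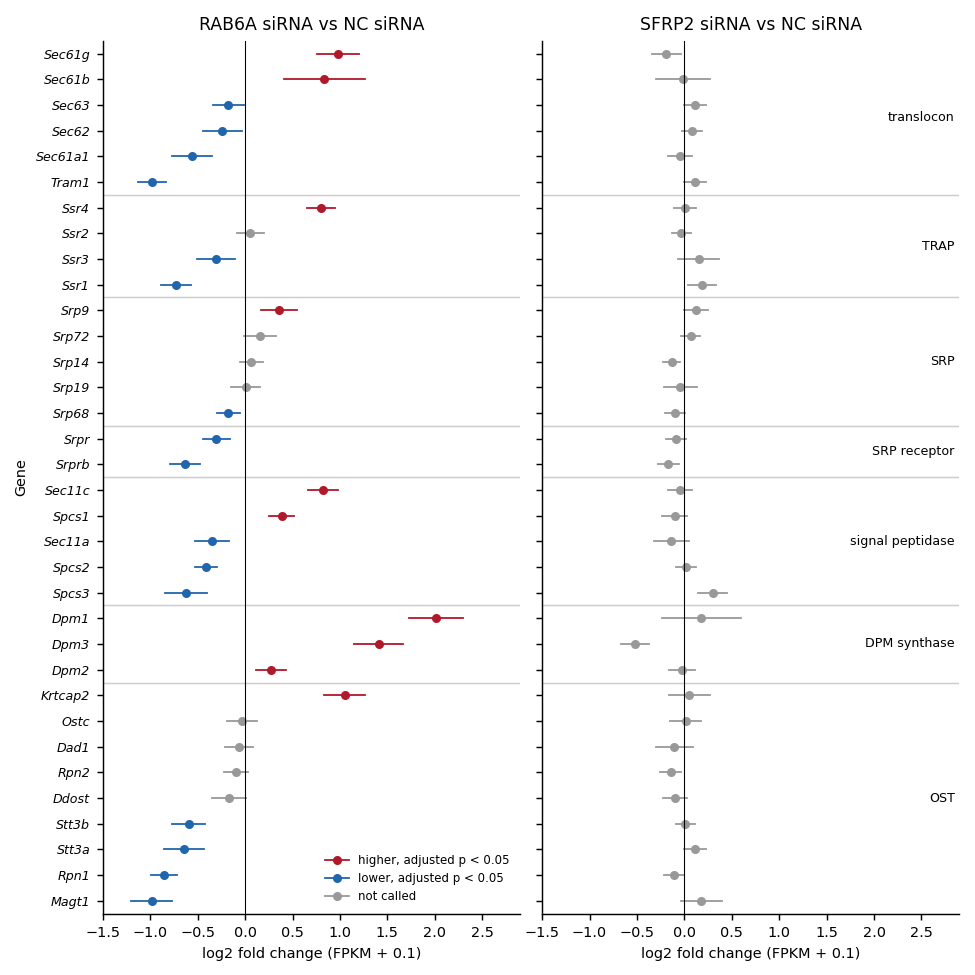
Log2 fold change of FPKM + 0.1 for each of the 34 members (points) with its 95% interval (lines), for RAB6A siRNA against NC siRNA (left) and SFRP2 siRNA against NC siRNA (right). On the left the members spread from -0.99 (Magt1) to 2.01 (Dpm1), and on the right all 34 are gray, that is, not called.

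Summed over complexes, the ratio of RAB6A siRNA to NC lay between 0.785 (SRP receptor) and 1.04 (SRP) for all complexes but DPM synthase (2.05), as the plot of summed FPKM shows. The sum over all members was 1168 ± 10.3 FPKM in NC, 1167 ± 25.2 in SFRP2 siRNA and 1131 ± 20.9 in RAB6A siRNA (NC against RAB6A siRNA, exact permutation test, p = 0.1). As a share of all reads, the members took 0.440% ± 0.00743 in NC and 0.380% ± 0.00941 in RAB6A siRNA. The SRP receptor had the largest drop, from 99.5 ± 2.78 to 78.1 ± 4.61 FPKM, and the OST sum differed little, 416 ± 6.81 against 405 ± 6.97 (exact permutation test, p = 0.2), with a gain of Krtcap2 beside losses of Rpn1, Stt3a and Stt3b.

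**Figure D3:**
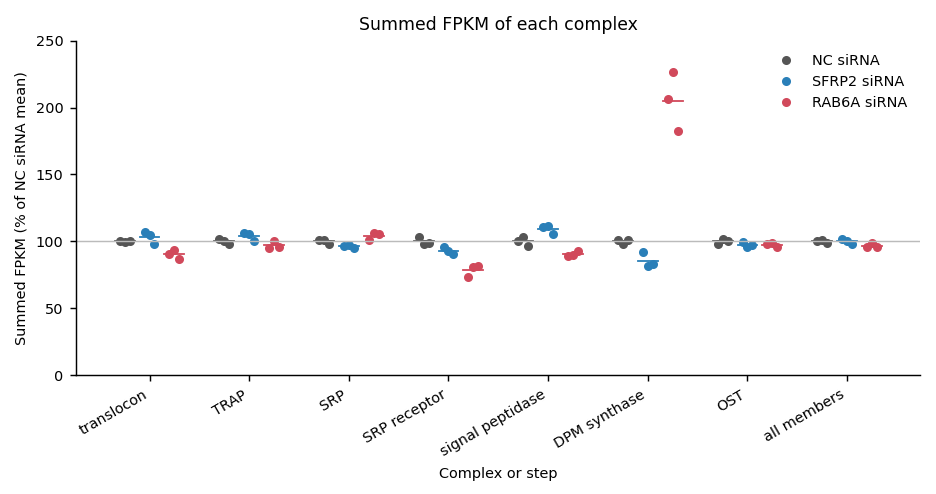
Summed FPKM of the members of each complex in every library (points), as a percentage of the mean of the NC siRNA libraries, with a line at each group's mean. DPM synthase in RAB6A siRNA lies far above 100%, with a mean ratio of 2.05, and the SRP receptor below it, with a mean ratio of 0.785.

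Members called higher had shorter coding sequences at the median than members called lower, which also held for all protein-coding genes (1200 against 1476 bases). The 10 members called higher had a median coding length of 297 bases (204 to 780), the 16 called lower 1158 bases (537 to 2469) and the 8 not called 498 bases (330 to 2013). The ranges overlapped: Dpm1, the largest rise, has 780 bases, more than Sec11a (537), Spcs3, Ssr3 and Spcs2, which fell. Of 17 members with a coding length up to 600 bases, 9 were higher and 3 lower, and of the 17 longer ones 1 (Dpm1) was higher and 13 lower. As shares, 52.9% of the short members were higher, beside 48.6% of all protein-coding genes of that length, and 76.5% of the longer members were lower, beside 44.2% of the longer protein-coding genes. Across the 34 members, the log2 fold change and the coding length had a Spearman rho of -0.61, and across 10150 protein-coding genes a rho of -0.15, where all genes share the same 6 libraries and are not independent replicates. With the length of the principal transcript, rho was -0.75 for the members and -0.15 for all genes, and with GC content 0.35 and 0.14.

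**Figure D4:**
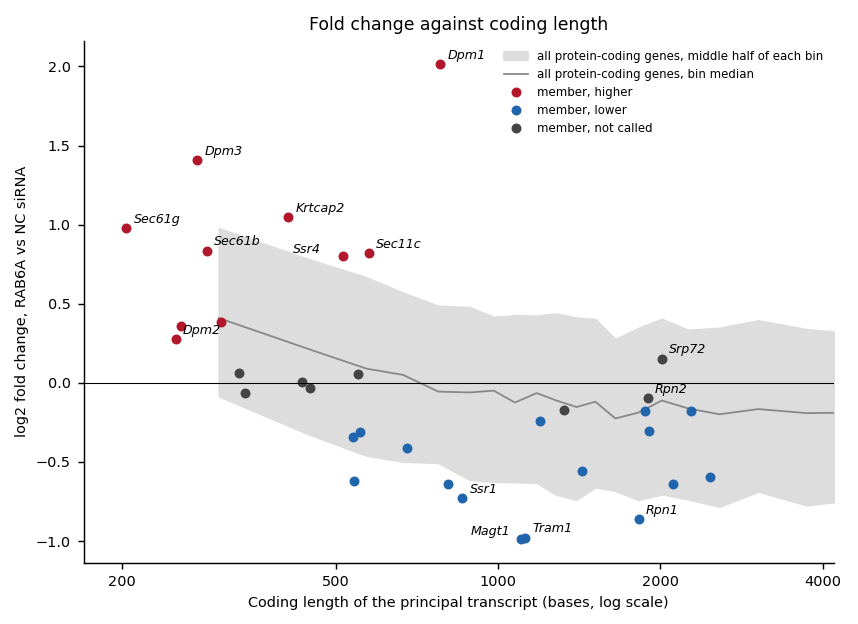
Log2 fold change of RAB6A siRNA against NC siRNA for each member (points, colored by call) against the coding length of its principal transcript in bases (log scale). The gray line and band give the median and the interquartile range of all protein-coding genes in bins of coding length; short members such as Sec61g, Dpm3 and Sec61b lie high and most members over 600 bases lie below 0, while Dpm1 stands above the band.

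When each library was corrected for GC content and the length of the principal transcript, an alternative chosen after seeing the data, 9 members were higher and 19 lower. Of all 12535 genes tested in that setting, 4528 were higher and 4838 lower. Sec61b was then at -0.022 (adjusted p = 0.90), and Dpm2 and Spcs1 changed sign, to -0.24 and -0.23. Dpm1 (2.18), Sec61g (1.06), Dpm3 (0.84), Krtcap2 (0.75), Sec11c (0.41), Ssr4 (0.28) and Srp9 (0.25) were called higher under that correction too, as were Srp72 and Dad1, which were not called without it, and Magt1 (-0.86), Tram1 (-0.81) and Rpn1 (-0.64) were called lower. The part of length and GC content in the remaining differences was not tested.

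Genes that work beside the machinery were counted from lists of 97 genes, of which 95 were tested, with 25 higher and 44 lower in RAB6A siRNA. These counts and those of each list stand beside 37.6% higher and 36.5% lower over all genes. In the assembly of the lipid-linked glycan, 7 of 28 tested genes were higher and 13 lower in RAB6A siRNA. The lowest were Dolk, which makes dolichol phosphate (-1.56), and Alg2, an early mannosyltransferase (-1.44), and the highest were Gmppa (0.85), a regulator of GDP-mannose synthesis, and Pmm1, a phosphomannomutase (0.81). In glycan trimming and the calnexin cycle, 3 of 15 were higher, led by Edem2 (1.59) and Os9 (0.75), which act on misfolded glycoproteins, and 7 lower, led by Man1a2 (-1.11) and Mogs (-1.11), which trim the glycan. Among lumenal partners of the translocon, 3 of 9 were higher, led by Sil1 (1.40) and its chaperone Hspa5, or BiP (1.05), and 4 lower, led by Dnajb11 (-0.54) and Hyou1 (-0.49).

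In a list on insertion into the ER membrane, which also holds the paralogs Sec61a2 and Tram2, 2 of 25 genes were higher, Emc9 (1.24) and Emc2 (0.31), and 15 lower, led by Wrb (-2.15), a receptor for tail-anchored proteins, and Nomo1 (-1.10). Emc9 was at 0.400 ± 0.128 FPKM in NC and 1.07 ± 0.236 in RAB6A siRNA, so that it passed the filter only through the RAB6A siRNA libraries. Wrb was at 1.89 ± 0.257 FPKM in NC and 0.347 ± 0.0509 in RAB6A siRNA, and it passed only through the NC libraries. In the unfolded protein response, 8 of 16 were higher and 5 lower. Ddit3, the stress-induced factor CHOP, was the highest (1.99), Ern1 (0.53) was second, and Herpud1 (-1.71) and Trib3 (-0.73) were the lowest. The median log2 fold change was -0.13 over the 95 related genes, as over the members.

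SFRP2 siRNA against NC gave no call in limma, among the members or elsewhere. The study itself reported upregulated and downregulated genes for this comparison. It used DESeq2 with the same threshold on adjusted p and an absolute log2 fold change over 1. Of 12017 genes tested, 0% were called and the smallest adjusted p was 0.14 in limma, while 929 genes had an unadjusted p under 0.05 with a higher level and 1291 with a lower one. With voom on the recovered reads, 59 genes were called in all, of which 1 was a member. Of the 34 members, 16 had a positive and 18 a negative log2 fold change, with a median of -0.017 beside -0.012 over all genes. An unadjusted p under 0.05 was found for 2 members with a higher level (7.73% of all genes) and 6 with a lower one (10.7% of all genes). The 3 libraries of each group did not overlap for 8 members with a higher and 8 with a lower level in SFRP2 siRNA, beside 10.9% and 13.9% of all genes.

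**Figure D5:**
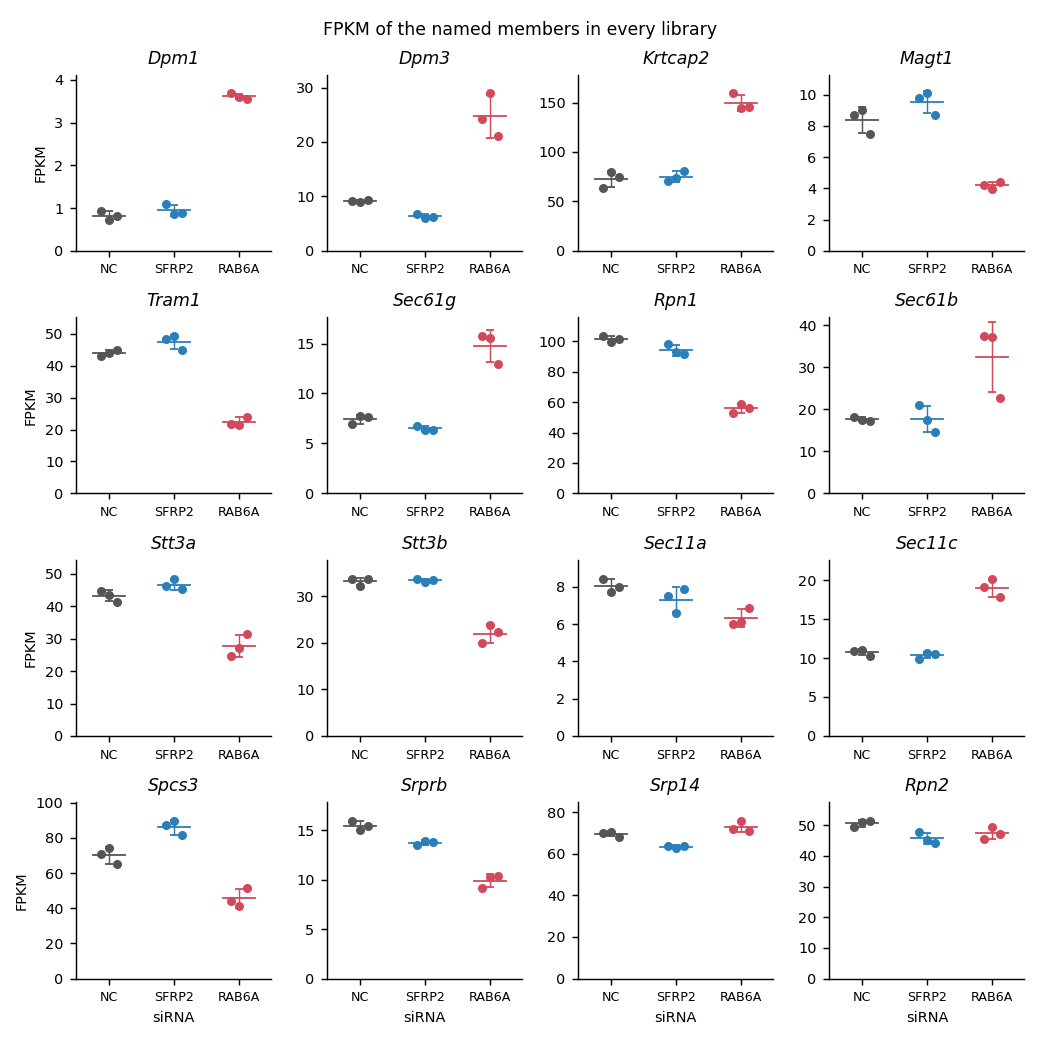
FPKM of 16 members in every library, with the 3 libraries of each group as points, the group mean as a line and the SD as a bar; each panel has its own axis from 0. Dpm1, Dpm3, Krtcap2, Sec61g, Sec61b and Sec11c are higher in RAB6A siRNA, and Magt1, Tram1, Rpn1, Stt3a, Stt3b, Srprb and Spcs3 are lower; the SFRP2 siRNA points lie near those of NC in most panels, with Dpm3 below and Spcs3 above.

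Dpm3 had the smallest p among the members. Its levels of 6.84, 5.99 and 6.30 FPKM in SFRP2 siRNA, from 201 to 255 reads, lay under those of NC (9.05 to 9.32 FPKM, 352 to 392 reads) at -0.52 (-0.67 to -0.37, unadjusted p = 6.8e-05, adjusted p = 0.14). Spcs3 was at 70.9, 74.3 and 65.0 FPKM in NC and 87.3, 89.5 and 81.4 in SFRP2 siRNA (0.30, 0.15 to 0.45, adjusted p = 0.17), and it is the member that voom called (0.31, adjusted p = 0.048). Srprb, given above, was at -0.17 (-0.28 to -0.06, adjusted p = 0.18). Srp14 was at 70.0, 70.5 and 68.2 FPKM in NC and 63.9, 62.8 and 63.5 in SFRP2 siRNA (-0.13, adjusted p = 0.19), and Rpn2 at 49.4, 51.1 and 51.3 against 47.7, 45.3 and 44.2 (-0.15, adjusted p = 0.20). The groups did not overlap for any of these 5 members, and none passed the threshold in limma. They were picked for the smallest p in this comparison, so that the lack of overlap adds no support.

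The intervals bound the members' differences under SFRP2 siRNA. They lay within -0.34 and 0.45 for every member but Dpm3 (-0.67 to -0.37) and Dpm1 (-0.24 to 0.59). Across the 34 members, the log2 fold change went with GC content at a Spearman rho of -0.51, and across 10027 protein-coding genes at -0.54. The part of GC content in these differences was not tested. Of the 94 related genes tested, none was called. At an unadjusted p under 0.05 (limma), 4 were higher and 15 lower, beside 7.73% and 10.7% of all genes.

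Set against each other, SFRP2 siRNA and RAB6A siRNA differed in 25 of the 34 members, with 14 higher and 11 lower in SFRP2 siRNA, beside 35.8% and 37.6% of all 12764 genes tested. With GC content and transcript length corrected for, 18 were higher and 8 lower, beside 4757 higher and 4504 lower of 12576 genes tested. The largest differences were Dpm3 (-1.93) and Dpm1 (-1.84), lower in SFRP2 siRNA, and Magt1 (1.17) and Tram1 (1.09), higher. Both this comparison and that with NC use the same RAB6A siRNA libraries, so that they are not independent. A total of 3 calls rested on single libraries: Srp9 (-0.24) was lost without any one SFRP2 siRNA library or RAB6A siRNA replicate 1 or 2 (adjusted p = 0.059 to 0.11), Sec62 (0.33) without RAB6A siRNA replicate 2 (adjusted p = 0.051) and Srpr (0.21) without SFRP2 siRNA replicate 1 (adjusted p = 0.064). Sec11a (0.21, adjusted p = 0.075) was called without SFRP2 siRNA replicate 2 (adjusted p = 0.034) or RAB6A siRNA replicate 3 (adjusted p = 0.039).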

How the data were processed

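RAW264.7 libraries (3 per group: NC, SFRP2 and RAB6A siRNA) were grouped by their labels. The deposited table holds FPKM for each gene in each library. HISAT2, featureCounts and Subread are named in the submitters' processing notes, and their versions, the genome build and the annotation are not given in the sources used here. FPKM divides by gene length and library size, so that a gain of a few abundant transcripts lowers the others, and reads that fit several copies of a gene may be lost or split. Identifiers were matched to GENCODE M21, which named 27533 of 28137 genes. FPKM times exon length gave whole reads (within 0.03 of a read) in all libraries for 27084 of the named genes (98.4%), and the recovered reads were used for depth and for voom.

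Tests used log2(FPKM + 0.1) for genes whose FPKM averaged 0.5 or more in the 6 libraries of a comparison, and limma 3.58.1 in R 4.3.3 (lmFit, eBayes with an intensity trend) with Benjamini-Hochberg adjustment over all genes tested. Pseudocounts of 1 and 0.01, other filters and scalings, each library left out, a replicate block, GC and length corrections (splines with 5 degrees of freedom) and voom were tried as alternatives. For summed levels and ratios, group labels were permuted exactly, two-sided (Python 3.11.15, scipy 1.17.1). Promoters are RefSeq sequences of GRCm38.p6, and shared 50-base stretches were counted over GENCODE transcripts.

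All 36 members are named, and all but Tusc3 by role. Values of each library are given for the 8 members with the largest change among those called in RAB6A siRNA against NC. Such values are also given for the 5 with the smallest p in SFRP2 siRNA against NC and for the paralog pairs. The pairs were Stt3a with Stt3b, Sec11a with Sec11c, and Magt1 with Tusc3, which has no values. From each list of related genes, the 2 highest and 2 lowest called genes are given. Values of Sec61a1 by library and the CCAAT box were added after their values were seen. The members and lists were chosen with earlier results of these data known. Counting error is the only error that the depth covers.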

Additional observations from a re-analysis of the deposited data

How the results depend on the processing

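For RAB6A siRNA against NC, the number of members called was 26 and lay between 23 and 28 over 20 alternatives, and between 23 and 26 with 1 library left out. For SFRP2 siRNA against RAB6A siRNA it was 25, between 23 and 27 over all alternatives and 23 and 26 with 1 library left out. There, with transcript length and GC content corrected for, Srp14 (0.27) and Dpm2 (0.28) were called in the opposite direction. Sec61b (0.069) and Sec63 (-0.028) then changed sign without a call, and Spcs1, Sec62, Srpr and Srp9 lost their calls. For SFRP2 siRNA against NC it was 0, and 0 to 0 with 1 library left out, and voom on the recovered reads called 1 member (Spcs3) among 59 genes, while the other alternatives called 0. Correction for GC content and transcript length turned the direction of Sec61b (-0.022), Dpm2 (-0.24), Spcs1 (-0.23) and Sec63 (0.036) in RAB6A siRNA against NC, with or without the replicate block. Dpm2 (0.14), Spcs1 (0.15), Sec61b (0.35) and Sec11a (-0.13) lost their call under the correction for GC content and exon length. Srpr lost its call under every length correction, Ssr3 under quantile normalization, and Sec62, Sec63 and Srp68 under several settings. The cause was not tested. Of the members not called, Ssr2, Srp14 and Ddost were called lower under every length correction (to -0.33, -0.40 and -0.34). Ostc was called lower with transcript length (-0.30), while Srp19 was called higher with exon length (0.18) and lower with transcript length (-0.44).

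Samples of different groups share only a replicate number. Deviations from the group means correlated at -0.01 on average between libraries of the same number (-0.085 to 0.048), so that they were not treated as pairs. With the replicate number as a block, 24, 0 and 24 members were called, for RAB6A siRNA against NC, for SFRP2 siRNA against NC and for the comparison between both, and the calls of Sec63 (adjusted p = 0.096) and Srp68 (adjusted p = 0.058) in the first were lost. Depth limits Srp54a and Sfrp2, with at most 21 and 4 reads per library.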

Other observations

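Outside the 36 members, the SRP subunit copy Srp54b was nearly silent in NC (0.0320, 0.0282 and 0.0730 FPKM, 6, 6 and 14 reads) and was at 3.44, 0.873 and 4.30 FPKM in RAB6A siRNA, from 564, 149 and 636 reads. In SFRP2 siRNA it was at 0.104, 1.44 and 0.0893 FPKM, so that 1 library of this group (replicate 2, with 252 reads) lay among the RAB6A siRNA values. Its copy Srp54c went the other way, from 6.69 ± 0.227 FPKM in NC to 4.81 ± 0.310 in RAB6A siRNA (-0.47, adjusted p = 0.00069 in limma). These copies share most of their sequence, so that the assignment of reads between them is uncertain. They were chosen after their values were seen.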
